A study of Mus musculus with 2 samples.

Results

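The genes described here encode microtubule-associated proteins and stathmins, and they were read from RNA-seq of the embryonic mouse midbrain. They were taken by name, as the rows of the deposited gene tables whose identifiers match Map2, Mapt, Map1a, Map1b, Dcx, Dclk1, Stmn1, Stmn2, Stmn3 and Stmn4. All 10 were found among 43346 genes, and they had 69 transcripts in the transcript tables. The tissue was midbrain of healthy B6NCrl embryos at embryonic day 11.5, with no treatment and no altered allele named in the labels. The labels give 1 group of 2 biological replicates, a pool of 109 embryos (replicate 1) and a pool of 88 embryos (replicate 2), each with both sexes. The gene rows held 38884247 expected counts (estimated reads) in replicate 1 and 45975100 in replicate 2. With 1 group there was no contrast of conditions, so the genes were compared with each other, by transcript, and between the 2 libraries.

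Microtubules are hollow polymers of tubulin that grow and shrink, and they fill the processes that young neurons extend. Proteins of the MAP2 and tau family, the MAP1 family and the doublecortin family bind along the polymer and stabilise it, and doublecortin is widely used as a marker of newly formed, migrating neurons. Stathmins act the other way, since they bind free tubulin dimers and promote disassembly. Stathmin 1 is cytosolic and common in dividing cells, and the other stathmins carry an added stretch at the start of the protein that is palmitoylated and holds them at membranes in neurons.

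The tissue held progenitors and young neurons, as read from markers chosen without the 10 genes. All 16 young neuron markers reached 1 TPM (a relative transcript abundance corrected for length) in both libraries, with Tubb3 (619.1 TPM), Gap43 (238.8 TPM) and Elavl4 (178.9 TPM) highest. All 12 neural progenitor markers did too, led by Vim (1176 TPM), Fabp7 (846.6 TPM) and Hes5 (379 TPM). The midbrain gene Otx2 had 170.35 TPM, and 7 of 8 markers of midbrain and isthmus reached 1 TPM. Genes listed for other cells also reached 1 TPM: all of 8 erythroid, 8 endothelial and 10 mesenchymal genes, 7 of 8 for microglia and macrophages, 5 of 7 for the oligodendrocyte lineage and 5 of 7 for sensory ganglion neurons. The highest gene of the oligodendrocyte list, Pdgfra (14.66 TPM), is also on the mesenchymal list, and Sox10 (0.61 TPM) and Mog (0.235 TPM) fell short. Avil and Runx1 of the ganglion list did too. These counts alone do not show that oligodendrocyte lineage or ganglion cells were present. By summed TPM the erythroid list was the largest of the marker lists, at 12973 in replicate 1 and 13046 in replicate 2. Its highest gene, Hbb-y, averaged 8311 TPM. The progenitor list summed to 2914 and 3006 TPM, and the young neuron list to 1629 and 1638 TPM. For the mesenchymal list the sums were 751.3 and 713.0 TPM. In such bulk tissue, fewer cells of a type and less RNA per cell cannot be told apart.

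The stretches of sequence on which these genes differ are shown first, from the GENCODE M21 transcripts on mm10, 5′ to 3′ along the gene's own strand. The 4 stathmins differ at the start of the coding sequence. Capitals mark bases that lie before the place where the start codon of Stmn1 aligns, and 36 further bases are in lower case. Each stretch spans several exons, so the coordinates include introns.
Stmn1 (chr4:134470163-134470689, plus strand): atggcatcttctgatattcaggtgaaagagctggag
Stmn2 (chr3:8509612-8545602, plus strand): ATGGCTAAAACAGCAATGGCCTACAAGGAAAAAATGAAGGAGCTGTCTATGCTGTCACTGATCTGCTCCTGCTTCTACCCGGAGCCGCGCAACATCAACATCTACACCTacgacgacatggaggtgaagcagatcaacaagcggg
Stmn3 (chr2:181308867-181314212, minus strand): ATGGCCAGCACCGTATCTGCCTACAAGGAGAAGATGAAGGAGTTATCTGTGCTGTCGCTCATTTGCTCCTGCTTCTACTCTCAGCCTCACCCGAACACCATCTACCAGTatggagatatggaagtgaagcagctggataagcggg
Stmn4 (chr14:66354433-66356768, plus strand): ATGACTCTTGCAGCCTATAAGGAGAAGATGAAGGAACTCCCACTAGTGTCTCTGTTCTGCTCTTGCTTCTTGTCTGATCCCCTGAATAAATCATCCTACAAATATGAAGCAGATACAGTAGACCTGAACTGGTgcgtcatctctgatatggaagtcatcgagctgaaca

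The coding sequences of Stmn2, Stmn3 and Stmn4 are longer than that of Stmn1 by 90, 93 and 120 bases. By alignment with free ends the capitals run for 109, 109 and 133 bases, which is more than the added length and no whole number of codons, so the start codon of Stmn1 aligned out of frame and the boundary is approximate. The longest run in capitals shared by Stmn2 and Stmn3 had 15 bases, TGCTCCTGCTTCTAC, and includes the codons of a pair of cysteines. Over the aligned coding sequences, pairs of stathmins were identical at 68.75% (Stmn3 and Stmn4) to 73.6% (Stmn2 and Stmn3) of bases.

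Dcx has splice choices that add or drop a few codons. Below, 24 bases on each side of the exon junction are in lower case and capitals mark the bases that 1 transcript holds and the other lacks. The coordinates are those of the upstream exon.
Dcx-201 (chrX:143870607-143870704, minus strand): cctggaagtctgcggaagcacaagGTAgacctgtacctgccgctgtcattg
Dcx-203 (chrX:143870610-143870704, minus strand): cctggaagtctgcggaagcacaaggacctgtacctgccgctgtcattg
Dcx-203 (chrX:143875755-143875892, minus strand): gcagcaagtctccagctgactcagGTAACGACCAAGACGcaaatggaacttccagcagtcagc
Dcx-204 (chrX:143875770-143875892, minus strand): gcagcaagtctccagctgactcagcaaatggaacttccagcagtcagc

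All 10 genes reached 1 TPM in both libraries, as did 32.1% of all genes, and their median was 119 TPM against 16.4 TPM for all genes that did. The highest and the lowest mean level were those of Stmn1 and Map1a. The deposited table gives an interval with each TPM, of unstated level. A pair of genes was called different where its intervals lay apart in replicate 1 and in replicate 2 with the same gene on top, and 43 of 45 pairs were. Values after ± are SD over the 2 libraries.

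**Figure D1:**
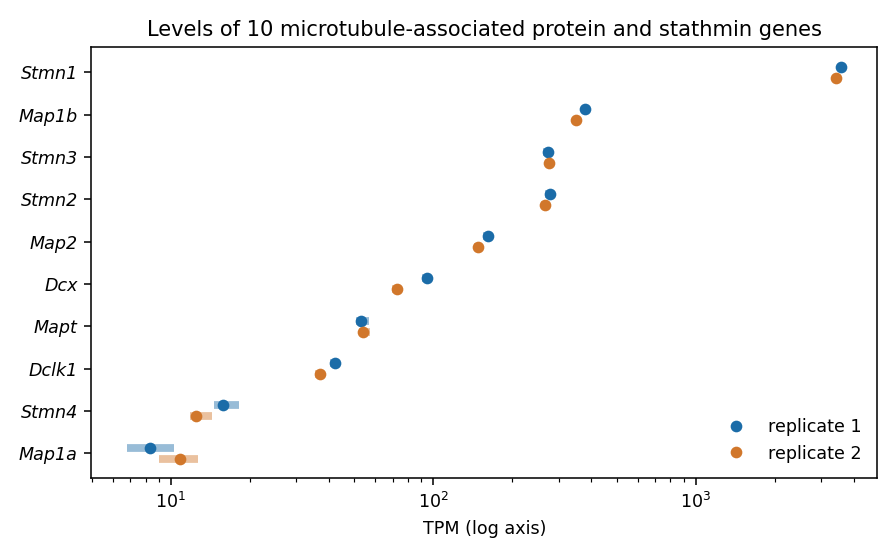
Deposited TPM of the 10 genes (log axis) in replicate 1 (blue) and replicate 2 (orange), with the deposited interval as a pale bar, which is hidden by the point where narrow. Stmn1 lies far to the right (3506 TPM on average), Stmn2 and Stmn3 lie together (272 and 274.1 TPM), and Stmn4 and Map1a are lowest with the widest intervals on this axis.

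Among the stathmins, Stmn1 (chr4:134468320-134473843; gene positions are from GENCODE M21 on mm10) was far the highest. It had 3586 TPM in replicate 1 and 3426 TPM in replicate 2 (3506 ± 113 TPM, n = 2), which placed it at rank 18 of all genes. That was 86.4% and 86.1% of the TPM of the 4 stathmins. Stmn1 had fractional counts, so some of its reads were shared with similar sequences and its level is uncertain to that extent.

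The neuronal stathmins Stmn2 (SCG10, chr3:8509360-8561606) and Stmn3 (SCLIP, chr2:181306459-181314500) could not be ordered. Stmn2 had 277.26 and 266.7 TPM (272 ± 7.45, n = 2), and Stmn3 had 272.3 and 275.85 TPM (274.1 ± 2.49, n = 2). Each was higher in 1 library, and their intervals overlapped in both. Stmn4 (RB3, chr14:66344296-66361680) had 15.8 and 12.47 TPM (14.1 ± 2.35, n = 2), from 457 and 478 counts, so it was the stathmin with the fewest reads.

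Map1b, the MAP1 protein of growing axons (chr13:99421446-99516540), was the highest of the 6 microtubule-associated proteins. It had 376.99 and 349.1 TPM (363 ± 19.7, n = 2). It drew 118612 and 131403 expected counts, more than the 91813 and 104997 of Stmn1, although its TPM was 9.66-fold lower. Its transcript has 11852 bases against 1060 for the leading Stmn1 transcript, and only TPM corrects for that length. Map1a, its relative of mature neurons and dendrites (chr2:121289600-121310832), had 8.35 and 10.82 TPM (9.585 ± 1.75, n = 2).

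Map2, a dendritic protein of mature neurons (chr1:66175273-66442583), had 161.4 and 147.9 TPM (154.7 ± 9.60, n = 2). Mapt, the axonal protein tau (chr11:104231390-104332090), had 53.0 and 54.1 TPM (53.6 ± 0.785, n = 2). Both libraries placed Map2 above Mapt, with separate intervals.

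Dcx (doublecortin, chrX:143855842-143933311) had 94.5 and 72.4 TPM (83.5 ± 15.7, n = 2); its SD was 18.8% of its mean, against 0.908% (Stmn3) to 18.2% (Map1a) for the others. Dclk1, which joins a doublecortin part to a kinase (chr3:55242364-55539068), had 42.2 and 36.97 TPM (39.6 ± 3.71, n = 2).

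Ordered by mean TPM, 7 of the 9 neighbouring pairs were separated by intervals in both libraries. The exceptions were Stmn3 with Stmn2, and Stmn4 with Map1a, whose intervals were apart in replicate 1 and overlapped in replicate 2. A stricter demand of 1.5-fold in both libraries separated 4 of 9 neighbours and 39 of 45 pairs. Map1b over Stmn3 (1.32-fold), Dcx over Mapt (1.54-fold) and Mapt over Dclk1 (1.36-fold) did not meet it.

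The transcript shares show how the RNA of each gene was divided among its listed transcripts. A form that is not listed cannot appear in them, and its reads could only count towards the listed ones. Map1b and Stmn3 have 1 transcript each in the tables. For 6 of the 8 other genes the leading transcript was the same in both libraries by TPM, against 91.4% of 9585 genes that reached 1 TPM and have several transcripts. By expected counts it was the same for all 8, a measure for which no share over all genes was computed. Shares below are percent of the gene's TPM. Transcripts with identical coding sequence were added together, a grouping chosen after seeing the data.

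**Figure D2:**
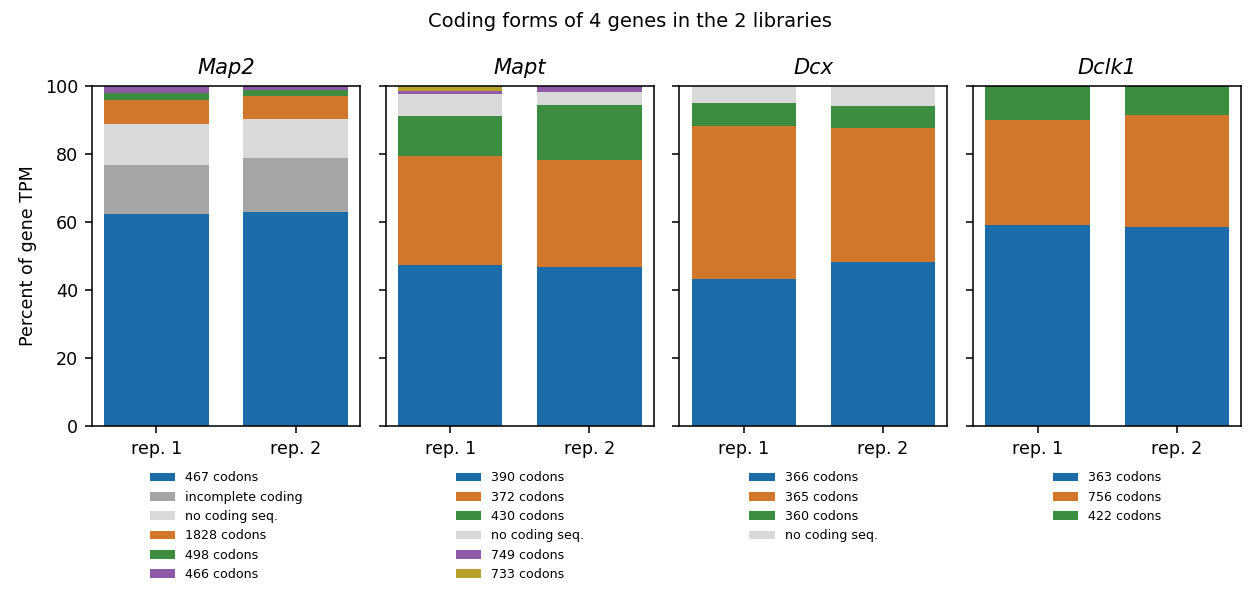
Percent of the gene's TPM taken by each coding form, given by its number of codons, in replicate 1 and replicate 2 of Map2, Mapt, Dcx and Dclk1. Grey parts are transcripts with an incomplete or no coding sequence. The order of Dcx forms of 366 and 365 codons differs between the libraries, and the leading form of the other 3 genes does not.

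Map2 RNA mostly encoded the short form. The transcripts Map2-201, Map2-202 and Map2-205 share a coding sequence of 1401 bases (467 codons), the size of the form known as MAP2c, and took 62.3% and 62.9%. Their single shares are less certain, since the interval of Map2-202 ran from 9.04 to 46.2 TPM in replicate 1. The long form, Map2-204, has 1828 codons and took 7.05% and 6.77%. It adds an exon of 3741 bases (chr1:66412407-66416147) and exons of 207 and 135 bases.

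By exon, the 3741-base exon was held by 9.55% and 9.27% of the TPM of transcripts that hold or skip it. The 207-base and 135-base exons beside it were close to that, at 10.5% and 9.27% and at 10.1% and 9.27%. These values are sums over whole transcripts and not reads of single exons. In replicate 2 the only transcript above 0 TPM that holds any of these exons was Map2-204. Their equal values there were thus fixed by the annotation and do not show that the exons are used together. A 93-base exon (chr1:66431527-66431619), which gives Map2 an added microtubule-binding repeat, was held by 3.77% and 2.38%. The coding form with that exon and without the large one has 498 codons. Map2-218 (10.9% and 12.7%) is a 546-base transcript annotated with an incomplete coding sequence, and by expected counts it took 1.18% and 1.38%. Map2-212 (5.01% and 4.79%) is a retained intron.

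Mapt RNA led with Mapt-205 (390 codons), at 47.3% and 46.6%. Mapt-204 (372 codons) took 32.0% and 31.6%, and Mapt-201 (430 codons) took 11.9% and 16.3%. Mapt-205 differs from Mapt-204 in its coding sequence by an exon of 54 bases (chr11:104307881-104307934, plus strand), shown because its share turned on the unit.
Mapt 54-base exon: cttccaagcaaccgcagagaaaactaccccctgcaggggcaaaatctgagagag

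The 54-base exon was held by 50.5% and 48.5% by TPM, but by 26.7% and 26.3% by expected counts. Mapt-204 has a last exon of 4119 bases and Mapt-205 one of 464 bases, and by expected counts Mapt-204 led, with 64.3% and 63.6%. Both the leading Mapt form and the share of this exon thus differed between the units, more than between the libraries.

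The 87-base exons, which encode the inserts near the start of tau, were held by 14.9% and 18.5% by TPM and by 7.94% and 9.51% by expected counts. The 711-base and 759-base exons of large tau forms were at or below 1.75% in both libraries.

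**Figure D3:**
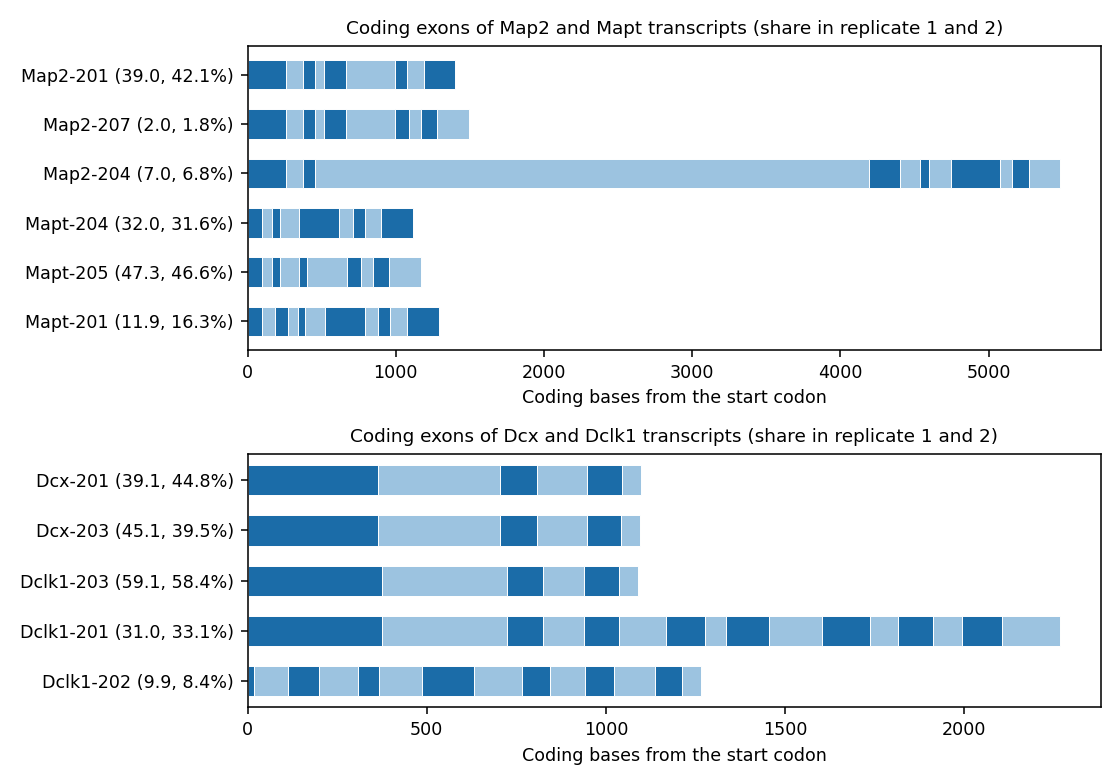
Coding exons, to scale in bases from the start codon, of transcripts of Map2 and Mapt (upper panel) and of Dcx and Dclk1 (lower panel), in alternating shades with the share of gene TPM in replicate 1 and replicate 2 in brackets. Map2-204 stands out by its 3741-base exon, and Dclk1-203 has the same number of coding exons as the Dcx transcripts.

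Dcx was split between forms that differ by single codons. The form of 366 codons (Dcx-201 and Dcx-202) took 43.2% and 48.1%, and that of 365 codons (Dcx-203), which lacks the 3 capital bases at the first junction above, took 45.1% and 39.5%. Dcx-204, which also lacks the 15 capital bases at the second junction, took 6.73% and 6.42%, or 1.47% and 1.34% by expected counts. By TPM, Dcx-203 led in replicate 1, and Dcx-201 led in replicate 2. Dcx-201 has a last exon of 7766 bases against 2897 for Dcx-203, and by expected counts Dcx-201 led in both libraries (62.1% and 67.7%).

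Among the 3 listed transcripts, Dclk1 RNA mostly lacked the kinase. The later annotation has 12 further Dclk1 transcripts, which could not receive a share. Dclk1-203 (363 codons, 6 coding exons), the doublecortin part alone, took 59.1% and 58.4%, or 53.2% and 52.4% by expected counts. Dclk1-201 (756 codons, 16 coding exons), with both parts, took 31.0% and 33.1%. Dclk1-202 (422 codons), the kinase without the doublecortin exons, took 9.90% and 8.44%. A 74-base exon, which is not a whole number of codons, was held by 24.2% and 20.3% of the TPM of transcripts that hold or skip it. The coding sequences of Dcx-203 and Dclk1-203 were identical at 69.9% of 1070 aligned bases. Dclk1-203 has another length in the later annotation that gave the exons, so its exon sizes are approximate for these tables.

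Stmn1 and Stmn2 were close to a single form each. Stmn1-201 took 98.55% and 98.8% of its gene, and Stmn2-201 took 94.3% and 93.65%. The 308-base noncoding Stmn2-203 took 4.74% and 5.53%, or 0.522% and 0.612% by expected counts. Stmn4 was led by Stmn4-201 (60.6% and 67.1%), and its other coding transcripts included Stmn4-203 (12.4% and 20.55%) and Stmn4-202 (8.35% and 12.3%).

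Transcripts without a complete coding sequence made up part of the level of the lowest genes, and also of Map2. Map1a-204, with 411 bases and no coding sequence, had 3.20 and 5.88 TPM from 26.8 and 58.8 counts. It was the leading Map1a transcript in replicate 2 (54.4%), and Map1a-201, with 3014 codons, led in replicate 1 (41.1%). Map1a-202, with 2776 codons, took 17.5% and 8.36%. By expected counts Map1a-201 led in both libraries (71.9% and 80.1%), and Map1a-204 had 1.79% and 3.31%. The Map1a transcripts with a complete coding sequence summed to 4.89 and 4.69 TPM, so the higher gene TPM in replicate 2 was not in them.

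Stmn4-208, a retained intron, took 17.4% in replicate 1, the second share of its gene there, and was listed at 0 in replicate 2. The Stmn4 transcripts with a complete coding sequence summed to 12.8 and 12.5 TPM. On these sums Stmn4 was above Map1a in both libraries (12.7 ± 0.262 against 4.79 ± 0.141 TPM, n = 2). For Dcx the sums were 89.9 and 68.0 TPM, so its difference between the libraries was as large in the coding transcripts. For Map2 the sums were 118.4 and 107.4 TPM, or 73.4% and 72.6% of the gene. The 1.5-fold demand on pairs was not applied to such sums.

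**Figure D4:**
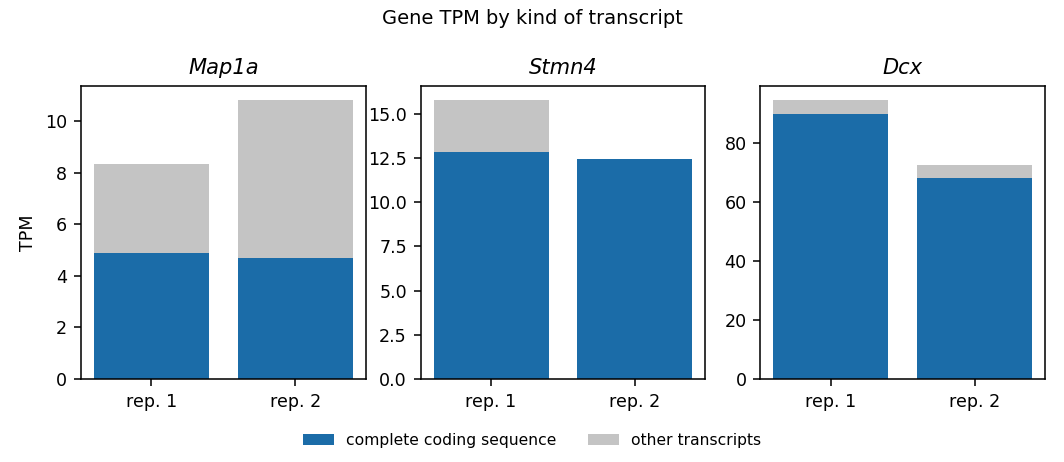
TPM of Map1a, Stmn4 and Dcx in replicate 1 and replicate 2, split into transcripts with a complete coding sequence (blue) and all others (grey), each panel with its own axis from 0. The blue parts of Map1a (4.89 and 4.69 TPM) and Stmn4 (12.8 and 12.5 TPM) are nearly level between the libraries, and that of Dcx is not (89.9 and 68.0 TPM).

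The 2 libraries were then compared gene by gene on expected counts, with a two-sided exact binomial test against TMM-scaled library sizes and Benjamini-Hochberg adjustment over 17148 genes. This compares the libraries and not conditions. At an adjusted p under 0.05 and at least 2-fold, 0 of the 10 genes were called, against a background of 2.94% of all tested genes. With the same limits, edgeR's exact test with an assumed coefficient of variation of 0.1 also called 0, against 0.904%. Among the 9975 genes whose counts summed to 900 or more, a minimum chosen after seeing that the 10 genes had 935 or more, the background of the binomial test was 0.0301%.

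With no fold minimum, 6 of the 10 were called, namely Map2, Map1b, Dcx, Dclk1, Stmn1 and Stmn2, against 35.5% of all genes. All 6 were lower in replicate 2 with this scaling, a direction called for 17.2% of all genes. Neither share is matched for depth, on which this p depends. The 10 genes had summed counts of 935 or more, and all tested genes 20 or more. Dcx differed most, with 368.5 and 298.5 CPM (counts scaled to the TMM library size) and a log2 ratio of replicate 2 over replicate 1 of −0.30 (exact binomial adjusted p = 7.561e-67). The p covers counting error only, and with 1 library on each side it holds no estimate of the spread between pools. Dclk1 (−0.18), Map2 (−0.13) and Map1b (−0.10) followed, and Stmn1 and Stmn2 were each at −0.05.

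Mapt (0.04), Stmn3 (0.03), Map1a (−0.00) and Stmn4 (−0.18) did not pass (exact binomial adjusted p = 0.394, 0.331, 0.975 and 0.119). Scaling to the ERCC spike-ins moved the median of all genes from 0.01 to 0.07, and the calls without a fold minimum depended on it. Stmn1 and Stmn2 then stood at 0.00, with the sign turned and the call lost (exact binomial adjusted p = 0.735 and 0.922). Stmn3 (0.09) and Mapt (0.10) were then called higher in replicate 2 (exact binomial adjusted p = 0.0005728 and 0.0109). Map2, Map1b, Dcx and Dclk1 were still called lower, so 6 of 10 were called, 4 lower and 2 higher, against 38.6% of all genes. The 38.6% is not matched for depth either. By the deposited intervals, 6 of the 10 did not overlap between the libraries (Map2, Map1b, Dcx, Dclk1, Stmn1 and Stmn4), against 22.4% of genes at 1 TPM. That share is not matched for level, since the median was 16.4 TPM for those genes and 119 TPM for the 10.

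Within Dcx, both leading transcripts were lower in replicate 2. Dcx-203 had 42.7 TPM (interval 39.2 to 44.0) in replicate 1 and 28.6 TPM (26.2 to 29.95) in replicate 2. Dcx-201 had 36.95 TPM (35.1 to 37.3) and 32.4 TPM (30.9 to 32.7). Neither pair of intervals overlapped.

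The 10 genes had a median log2 ratio of −0.08, against 0.01 for all tested genes. The young neuron markers had a median of −0.07 (lowest −0.31, highest 0.14), and their summed TPM was 1629 in replicate 1 and 1638 in replicate 2. Without Tubb3 the sums were 1037 and 992.3 TPM, the other direction. Progenitor markers had a median of 0.02 and summed to 2914 and 3006 TPM. In these lists 0 of 16 and 0 of 12 genes were called at 2-fold in either direction. The part of cell composition in the Dcx difference was not tested.

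**Figure D5:**
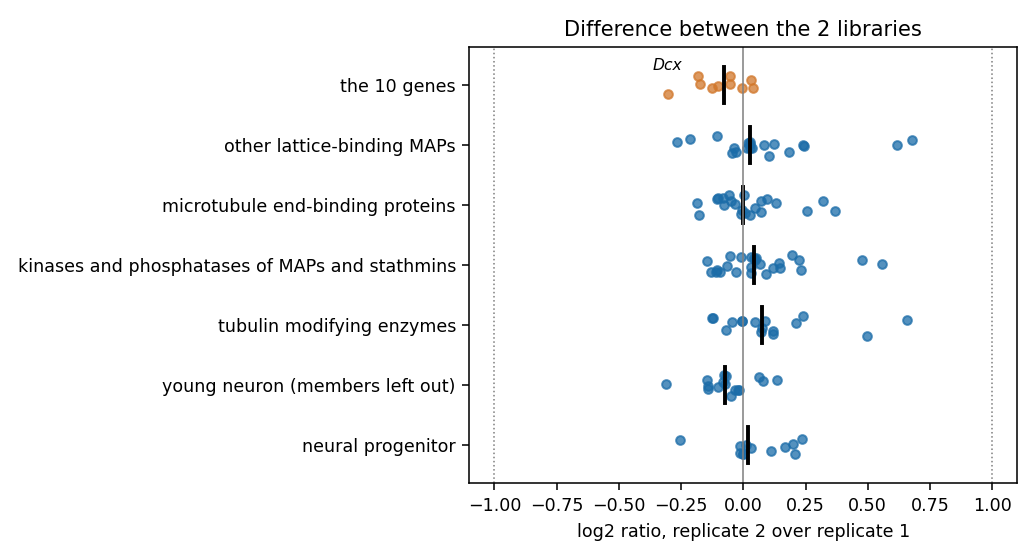
Log2 ratio of replicate 2 over replicate 1 for the 10 genes (orange) and the tested genes of 6 lists (blue), 1 point a gene, with the median as a black bar. Dotted lines mark 2-fold, which no plotted gene passed, and Dcx is the lowest of the 10 genes at −0.30.

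Of the other 104 listed genes that act with or on these proteins, 99 reached 1 TPM in both libraries, against 32.1% of all genes. The median was 26.3 TPM over the 104. The lists were chosen with earlier results of these data known, so this and the counts below do not single out this pathway. None of the listed genes tested was called between the libraries at 2-fold. In the families themselves, Map4, a relative of Map2 and Mapt found in many tissues, had 47.2 ± 2.19 TPM. Map1lc3b and Map1lc3a, light chain proteins best known from autophagy, had 206.2 ± 2.52 and 95.5 ± 7.19 TPM. Dclk2 had 17.6 ± 0.156 TPM (each n = 2), and 5 of 7 doublecortin family genes reached 1 TPM.

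Of 21 genes listed with other proteins that bind along microtubules, 20 reached 1 TPM. Jpt1 (730.6 TPM), Jpt2 (204.4 TPM) and the spindle midzone protein Prc1 (164.7 TPM) were highest. All 22 end-binding genes did, led by Mapre1 (EB1, 321.4 TPM), the polymerase Ckap5 (111.1 TPM) and Mapre2 (92.96 TPM). Of severing enzymes, 7 of 8 did, led by Fignl1 (79.9 TPM), the katanin subunit Katna1 (56.3 TPM) and spastin, Spast (32.4 TPM).

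The genes listed for kinases and phosphatases that act on these proteins, some of them regulators or scaffolds, all reached 1 TPM (25 of 25). The highest were the mitotic kinases Cdk1 (317.5 TPM) and Aurkb (130.2 TPM), which phosphorylate stathmin in dividing cells, and the protein kinase A subunit Prkaca (112.1 TPM). Of 16 genes listed for tubulin modification, not all of them enzymes, 15 reached 1 TPM. The highest were Svbp (134.8 TPM), a partner of the detyrosinating enzymes, the acetyltransferase Atat1 (124.4 TPM) and the deacetylase Sirt2 (54.0 TPM). All 5 genes listed for palmitoylation and transport of stathmins did, with Gap43 (238.8 TPM), itself palmitoylated, and the palmitoyltransferases Zdhhc3 (48.2 TPM) and Zdhhc7 (20.5 TPM) highest.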

How the data were processed

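Per the labels, long RNA from each pool (10 ng, mirVana) was sequenced with ERCC spike-ins and a cited Smart-seq protocol, which amplifies cDNA. The p-values cover counting error only and leave out error from amplification. The intervals are given within each library, so they hold no spread between pools. For the aligner, quantifier and use of strand: not given in the sources used here. Per the file headers, the authors deposited an expected count for each gene and transcript, TPM (maximum likelihood and posterior mean, scaled over all rows including spike-ins), interval bounds of TPM, handled here as a signal, and each transcript's percent of its gene. The intervals lie around the posterior mean, and the maximum likelihood TPM printed lay outside them for Stmn1 and Map1b.

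From these values, levels, pair calls (folds on TPM + 0.1), transcript shares, exon inclusion and log2 ratios (prior count 1, tested genes with 20 or more counts in sum) were computed. Counts were rounded for tests. Structures and sequences came from GENCODE M21 on mm10; 67 of the 69 transcripts had equal length there (not Dclk1-203 and Map1b-201). Alignments scored 1 for a match, -1 for a mismatch, -5 to open and -0.5 to extend a gap. A floor of 3 counts corresponds to 0.0772 and 0.0653 CPM. Rows that are neither genes nor spike-ins were left out and held 4.44 and 13.25 counts. Drgx had no match.

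Members and lists were chosen with earlier results of these data known. Genes named are the 10 members, the 3 highest of each list described, transcripts at 5% or more, and exons by the inclusion rule (5% to 95% in either library, the repeat exon and the largest exon of Map2). 1 further item that this rule takes is not reported here. The test was run on simulated counts with sampling noise only, which hold no spread between pools, so this check does not cover that spread. Python 3.11.15, numpy 2.4.6, pandas 2.3.3, scipy 1.17.1, Biopython 1.88, R 4.3.3, edgeR 4.0.16 and DESeq2 1.42.0 were used.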

Additional observations from a re-analysis of the deposited data

How the results depend on the processing

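The median level of the 10 genes, 119 TPM, was 140.1 TPM when rescaled over genes without spike-ins and 95.9 TPM over transcripts with a complete coding sequence, an alternative chosen after seeing the data. It ran from 110.1 to 128 TPM leaving out each replicate. Of 45 pairs, 43 to 44 were separated in 1 library alone. The count of genes called between the libraries was 6 without the 2-fold minimum, also 6 (4 lower, 2 higher) when spike-in scaling was added to that, a combination chosen after seeing the data, and 0 under the other scalings, filter and test. Shares by expected counts, which follow transcript length, moved by more than the SD for 19 of 26 transcripts and 6 of 8 exons. The ratio of Map1a, at −0.00, was 0.00 by total counts and 0.05 by spike-ins. Depth limited Stmn4 and Map1a most. No paired analysis was possible because there is 1 group.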
